A study of Rattus norvegicus with 12 samples.

Results

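The 8 genes described here encode subunits of the NADPH oxidases: Cybb, Cyba, Ncf1, Ncf4, Nox1, Nox4, Duox2 and Rac2. They were taken by symbol from 2 tables of kidney gene expression, and each had 1 entry among the 22132 entries of the control and adenine table and 1 among the 32623 of the sham and UUO table. RNA was sequenced from kidney tissue of 12 male wild-type SD rats, bought at 8 weeks of age, with 3 rats in each of 4 groups. The methods of the study do not name the part of the kidney taken. The adenine rats received a daily adenine dose of 220 mg/kg by stomach tube over 3 weeks, which injures the tubules, and the control rats were given saline over the same time. In the UUO group (unilateral ureteral obstruction) the left ureter had been tied off 2 weeks earlier, and sham rats had been operated on without the ligation. Both are models of renal fibrosis, and no rat carried a transgene. Levels are given as FPKM, fragment counts scaled by transcript length and library size, so that levels of different genes can be compared.

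NADPH oxidases are membrane enzymes that carry electrons from NADPH across a membrane to oxygen, and so make superoxide or hydrogen peroxide. In phagocytes such as macrophages and neutrophils the catalytic subunit is Cybb (gp91phox, also called Nox2), which is held in the membrane by Cyba (p22phox) and is silent until cytosolic subunits, among them Ncf1 (p47phox) and Ncf4 (p40phox), and the GTPase Rac2 join it. Nox4 is the main isoform of healthy kidney, where tubule cells express it, and it needs Cyba but no cytosolic subunit, while Nox1 and Duox2 are known from epithelia such as those of the colon and the thyroid.

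RefSeq entries for the promoter, from 250 bases before to 50 bases after the start of the gene in build GRCr8, matched 6 of the 8 members. Those of the subunit with the largest rise in both models (Cybb), of a cytosolic subunit that rose with it (Ncf1), of the partner that Cybb and Nox4 share (Cyba) and of the gene that fell (Nox4) are shown, read along the strand of the gene. Capitals mark each match, on either strand, of GAGGAA (a core letter string of ETS factors such as Spi1), GAAA repeated after a gap of any 2 bases (that of interferon regulatory factors) and GGGCGG (the GC box), with no overlap among the matches shown. The coordinates are chrX:16065016-16065315 (minus strand) for Cybb, chr12:28121635-28121934 (plus strand) for Ncf1, chr19:67404165-67404464 (minus strand) for Cyba and chr1:150313639-150313938 (plus strand) for Nox4.
Cybb: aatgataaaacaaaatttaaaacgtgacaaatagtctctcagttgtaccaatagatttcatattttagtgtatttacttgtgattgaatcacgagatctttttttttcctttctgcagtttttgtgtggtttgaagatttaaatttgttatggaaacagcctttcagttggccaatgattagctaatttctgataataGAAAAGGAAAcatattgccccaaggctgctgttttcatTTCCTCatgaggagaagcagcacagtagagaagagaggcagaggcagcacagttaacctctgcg
Ncf1: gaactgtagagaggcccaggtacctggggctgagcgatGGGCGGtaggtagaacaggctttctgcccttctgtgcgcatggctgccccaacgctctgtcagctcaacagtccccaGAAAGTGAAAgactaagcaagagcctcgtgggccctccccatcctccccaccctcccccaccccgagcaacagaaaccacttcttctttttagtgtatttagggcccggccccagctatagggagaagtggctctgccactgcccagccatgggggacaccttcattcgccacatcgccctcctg
Cyba: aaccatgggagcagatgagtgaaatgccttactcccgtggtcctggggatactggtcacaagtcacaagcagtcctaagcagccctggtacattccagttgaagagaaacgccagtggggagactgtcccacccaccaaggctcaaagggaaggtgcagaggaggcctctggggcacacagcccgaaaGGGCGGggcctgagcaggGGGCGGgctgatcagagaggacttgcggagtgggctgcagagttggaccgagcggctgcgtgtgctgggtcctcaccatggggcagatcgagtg
Nox4: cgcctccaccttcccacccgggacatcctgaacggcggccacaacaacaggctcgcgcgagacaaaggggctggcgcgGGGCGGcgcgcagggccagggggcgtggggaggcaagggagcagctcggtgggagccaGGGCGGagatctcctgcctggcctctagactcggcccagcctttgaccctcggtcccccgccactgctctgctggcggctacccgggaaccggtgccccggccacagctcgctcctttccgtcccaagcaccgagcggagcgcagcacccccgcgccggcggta

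In the Cybb window GAGGAA lay at position -14 from the start, on the opposite strand, and the GAAA repeat at -52. Ncf1 also held the GAAA repeat, at -135, and a GC box at -212. Cyba had GC boxes at -62 and -44 and Nox4 at -172 and -114, and neither window held the other strings. Of 33469 RefSeq rat promoters of the same 300 bases, 27.6% held GAGGAA, 3.92% held the GAAA repeat and 33.1% held GGGCGG, so the GAAA repeat was the least common. The windows of Cybb and Nox4 lay near opposite ends of base composition, with 35.7% and 73% GC against a median of 51.7%, and 3 and 31 CpG dinucleotides against a median of 7. These matches describe letters, and binding of any factor was not measured.

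The kidneys carried their tissue markers, since the 6 kidney identity genes, led by Umod, summed to 1534 to 2140 FPKM in control and 2400 to 2965 in sham rats. Control rat 2 stood apart in this check, with Slc12a3, a transporter of the distal tubule, at 12.9 FPKM against 197 and 164 in the other control rats. Without this rat the same 6 members were called in the adenine model as with it. FPKM summed over all entries to 564972 to 582725 in control, 468389 to 487770 in adenine, 619664 to 630244 in sham and 528811 to 539011 in UUO rats, and the number of reads behind the values is unknown. Over all tested entries the log2 fold change had a median of 0.30 against control and 0.62 against sham (0.06 and 0.08 after median-of-ratios scaling), so each member is also given relative to that median. These are bulk tissues, in which fewer cells of a type and less RNA per cell cannot be told apart.

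In both models the phagocyte subunits rose and Nox4 fell. A gene is said to have risen or fallen where the Benjamini-Hochberg adjusted p of limma, over all tested entries of its table, was under 0.05, and it is called a DEG where the absolute log2 fold change was also at least 2. Of the 8 members, 6 reached 0.5 FPKM in 3 or more of the 6 rats of a table and were tested, and all 6 were above that level in every rat. In the adenine model 5 of these 6 rose and 1 fell, where 39.6% of all 15029 tested entries rose and 19.9% fell, and against sham the counts were again 5 and 1, where 56.1% of 15043 rose and 14.4% fell. With median-of-ratios scaling these backgrounds were 30.8% and 26.9% against control, and 29.9% and 26.7% against sham. Members that were DEGs numbered 4 in each model, Cybb, Ncf1, Ncf4 and Rac2, all upregulated, against a background of upregulated DEGs of 10.7% among entries of the control and adenine table and 13.2% in the other table. The 6 had median log2 fold changes of 3.84 (adenine) and 2.77 (UUO), and these 6 genes had no overlap between groups in either model, as had 68% and 75.7% of all tested entries.

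**Figure D1:**
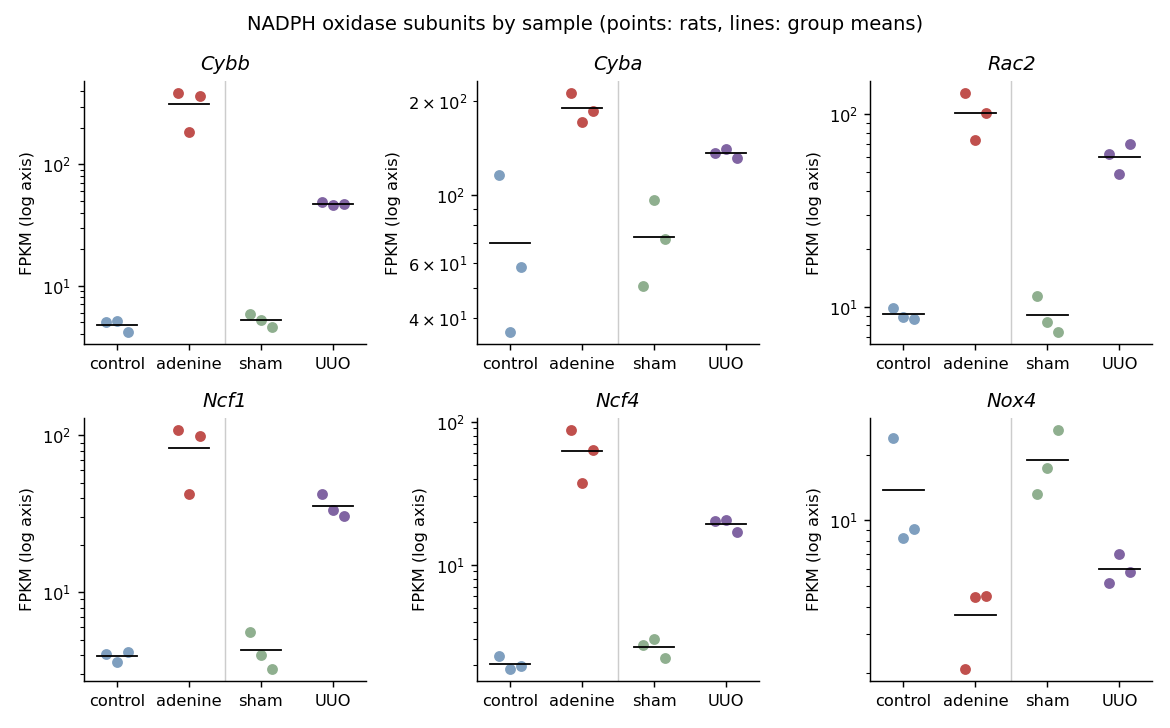
FPKM of the 6 tested oxidase subunits in each of 12 rats (points, log axes that differ between panels) with the mean of each group (lines); the grey line separates the 2 tables. Cybb stood at 4.13 to 5.12 FPKM in control and 184 to 388 in adenine rats, and at 4.59 to 5.82 in sham and 46.1 to 48.6 in UUO rats, while Nox4 was lower in both disease groups.

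Cybb, the catalytic subunit of phagocytes, had 4.98, 5.12 and 4.13 FPKM in the 3 control rats and 388, 184 and 369 in the 3 adenine rats. Adenine rat 2 was the lowest of its group, yet far above every control rat. The group means, 4.74 ± 0.539 and 314 ± 113 FPKM (SD, n = 3), differed 66.1-fold. By limma it rose by 5.95 on the log2 scale (SE 0.29, adjusted p = 2.9e-05), or 5.65 above the median of all entries. In sham rats Cybb had 5.82, 5.21 and 4.59 FPKM, and in UUO rats 48.6, 46.1 and 46.7. The UUO rats lay close together and well above the sham rats, 9.05-fold higher on average, a change of 3.16 on the log2 scale (SE 0.11, limma adjusted p = 8.66e-06) that was 2.54 above the median.

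Nox4, the isoform of healthy tubules, went the other way. Its level was 24.0, 8.26 and 9.11 FPKM in control and 2.08, 4.47 and 4.47 FPKM in adenine rats. Control rat 1 was the highest by far, and the groups did not overlap. The mean fell 3.75-fold, from 13.8 ± 8.83 to 3.67 ± 1.38 FPKM (SD, n = 3), and its log2 fold change, -1.78 (SE 0.48, limma adjusted p = 0.0166), was -1.30 without control rat 1 and -2.06 without control rat 2. In the UUO model the values were 13.1, 17.4 and 26.0 FPKM in sham rats and 5.16, 7.01 and 5.79 in UUO rats. Each UUO rat was below each sham rat, by 3.15-fold on average, and the log2 fold change was -1.59 (SE 0.26, limma adjusted p = 0.00140). Relative to the median of all entries the falls were -2.08 and -2.21. After median-of-ratios scaling Nox4 passed the threshold of a DEG in both models, at -2.01 and -2.14.

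The summed level of proximal tubule markers was lower in both models, as was Nox4, but the single markers did not all fall. Of 10 such genes all 10 were tested, and 5 fell, 2 rose and 3 were not called against control, while 6 fell, 0 rose and 4 were not called in the UUO model. Among all tested entries 19.9% fell and 39.6% rose against control, and 14.4% fell and 56.1% rose in the UUO model. The summed level of the 10 markers went from 1555 to 2483 FPKM in control to 191 to 596 in adenine rats, and from 2285 to 2710 in sham to 301 to 594 in UUO rats. Among the highest of them, the phosphate transporter Slc34a1 fell by 4.31 and 3.86 on the log2 scale, the water channel Aqp1 by 2.14 and 1.87, and the dicarboxylate transporter Slc13a3 by 1.99 and 3.40. The 2 that rose in the adenine model, the bicarbonate transporter Slc4a4 and the lactate transporter Slc5a12, rose by 4.53 and 3.998, and Slc5a2 had 2.78 there and was not called. Their part in the fall of Nox4 was not tested.

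Nox1 and Duox2 were near the bottom of the scale. Nox1, known from colon epithelium, had 0.0485, 0 and 0.0381 FPKM in control and 0.145, 0.127 and 0.125 in adenine rats, and 0.0189, 0.0444 and 0.0782 in sham and 0.134, 0.131 and 0.175 in UUO rats. It did not reach the minimum level in any rat, and in a fit with no filter on low values its log2 fold changes were 0.87 (limma adjusted p = 0.0195) and 0.76 (0.0394). Duox2, which makes hydrogen peroxide in the thyroid and at mucosal surfaces, had 0.00795, 0.0401 and 0.0285 FPKM in control and 0.0182, 0.0781 and 0.0363 in adenine rats, groups that overlapped. In sham rats it had 0.00897, 0.0122 and 0.0277 FPKM, and in UUO rats 0.223, 1.07 and 0.0792. The UUO rats were all above the sham rats but spread widely, with rat 2 above the other 2, and with no filter the log2 fold change of 1.81 was not called (limma adjusted p = 0.0578).

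Because FPKM is per length, the catalytic genes can be set side by side within a rat. Nox4 made up 82.6%, 61.3% and 68.4% of the summed FPKM of Cybb, Nox1, Nox3, Nox4, Duox1 and Duox2 in control rats (Nox3 was not analysed here in that table) and 0.533%, 2.37% and 1.20% in adenine rats. Cybb took its place, with a share of 28.7% ± 10.6 in control and 98.6% ± 0.972 in adenine rats (SD, n = 3). In sham rats the share of Nox4 was 69.2%, 76.8% and 84.7%, and in UUO rats 9.40%, 12.9% and 10.96%, while the share of Cybb went from 22.8% ± 7.87 to 87.2% ± 2.12. The leading catalytic transcript thus changed from Nox4 to Cybb in every diseased rat of both models. Each of these shares differed between the groups of a model with p = 0.1 in an exact permutation test (two-sided), the smallest value that 3 rats against 3 allow, and 32 such comparisons of shares, ratios and relative levels were made, for which p = 0.1 became 0.133 after Benjamini-Hochberg adjustment. The summed catalytic level was 13.3 to 29.0 FPKM in control and 189 to 390 in adenine rats, and 19.0 to 30.8 in sham and 52.9 to 54.9 in UUO rats.

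**Figure D2:**
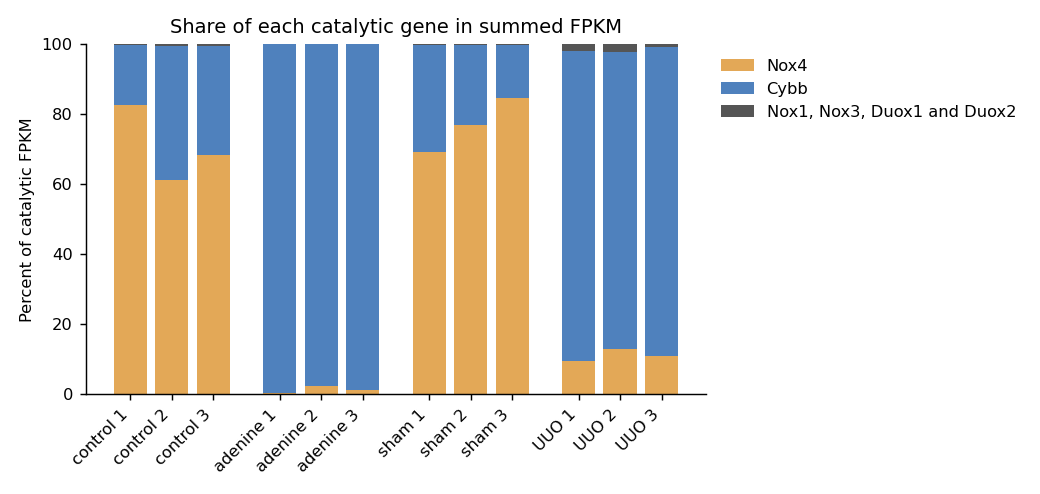
Share of each catalytic gene in the summed FPKM of the catalytic genes (percent, stacked bars, 1 bar per rat). Nox4 held 61.3% to 84.7% in control and sham rats, 0.533% to 2.37% in adenine rats and 9.40% to 12.9% in UUO rats, and Cybb held nearly all the rest.

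Cyba, the membrane partner of both Cybb and Nox4, was the most abundant member in control kidneys and rose least. It had 115, 36.0 and 58.4 FPKM in control rats and 213, 172 and 186 in adenine rats. The control rats were far apart, but none reached an adenine rat. The log2 fold change was 1.60 (SE 0.39, limma adjusted p = 0.0114), and it was 1.21 without control rat 2 and 2.05, past the threshold of a DEG, without control rat 1. Sham rats had 50.8, 96.1 and 71.8 FPKM and UUO rats 136, 141 and 131. The log2 rise of 0.95 (SE 0.22, limma adjusted p = 0.00673) was 0.33 above the median of all entries, and with median-of-ratios scaling it was 0.40 and was not called (adjusted p = 0.169). The excess of Cyba over Cybb shrank in both models: Cyba exceeded Cybb 23.1-, 7.02- and 14.2-fold in control rats, against ratios of 0.548, 0.935 and 0.503 in adenine rats, and the ratio was 8.73, 18.4 and 15.6 in sham and 2.80, 3.05 and 2.82 in UUO rats.

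The cytosolic subunits followed Cybb. Ncf1, the organizer that carries the others to the membrane, had 4.05, 3.61 and 4.18 FPKM in control and 109, 42.3 and 99.2 in adenine rats, and 5.59, 4.004 and 3.25 in sham and 42.3, 33.6 and 30.8 in UUO rats. Its log2 fold changes were 4.26 (SE 0.35, limma adjusted p = 0.000134) and 3.05 (SE 0.22, adjusted p = 5.05e-05). Ncf4, which binds phosphoinositides on phagosomes, had 2.28, 1.87 and 1.95 FPKM in control and 87.9, 37.0 and 63.6 in adenine rats, and 2.74, 3.01 and 2.22 in sham and 20.2, 20.4 and 17.0 in UUO rats. It rose by 4.80 (SE 0.30, limma adjusted p = 5.81e-05) and 2.82 (SE 0.15, adjusted p = 2.17e-05) on the log2 scale. As for Cybb, adenine rat 2 was the lowest of its group in both genes and still above every control rat.

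Rac2, the GTPase of blood cells that switches the complex on, had 9.84, 8.90 and 8.61 FPKM in control and 129, 73.6 and 102 in adenine rats, and 11.4, 8.37 and 7.37 in sham and 61.9, 48.8 and 69.9 in UUO rats. Groups did not overlap in either model. The log2 fold changes were 3.43 (SE 0.20, limma adjusted p = 4.96e-05) and 2.73 (SE 0.20, adjusted p = 5.41e-05). Its widely expressed relative Rac1 rose less, by 1.06 (SE 0.08, adjusted p = 0.000123) and 1.04 (SE 0.07, adjusted p = 5.08e-05), of which 0.76 and 0.43 lay above the medians of all entries. The ratio of Rac2 to Rac1 was 0.168 ± 0.00958 in control and 0.901 ± 0.257 in adenine rats, and 0.120 ± 0.0330 in sham and 0.385 ± 0.0783 in UUO rats (SD, n = 3).

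The order of the members by mean FPKM turned over with disease. In control rats it ran from Cyba (69.9) through Nox4 (13.8), Rac2 (9.12), Cybb (4.74), Ncf1 (3.94) and Ncf4 (2.03) down to Nox1 (0.0289) and Duox2 (0.0255), and the pairs of neighbours whose ranges overlapped were Nox4 and Rac2, Cybb and Ncf1, and Nox1 and Duox2. In adenine rats it ran Cybb (314), Cyba (190), Rac2 (101), Ncf1 (83.4), Ncf4 (62.8), Nox4 (3.67), Nox1 (0.132) and Duox2 (0.0442), with overlap between Cybb and Cyba, Rac2 and Ncf1, and Ncf1 and Ncf4. Sham rats had the order of control rats, with overlap of Cybb with Ncf1 and of Nox1 with Duox2 alone. In UUO rats it was Cyba (136), Rac2 (60.2), Cybb (47.1), Ncf1 (35.6), Ncf4 (19.2), Nox4 (5.99), Duox2 (0.456) and Nox1 (0.147), and only Duox2 and Nox1 overlapped. Nox4 thus went from the second to the sixth place in both models.

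Genes that serve these enzymes mostly rose as well. Of 11 other oxidase genes, 9 were listed and 5 tested in the adenine model, where 4 rose and 1 fell, and 10 were listed and 6 tested in the UUO model, where 5 rose and 1 was not called. Over all tested entries 39.6% rose and 19.9% fell in the adenine model, and 56.1% rose in the UUO model. The largest change among these oxidase genes was that of Hvcn1, the proton channel that balances the charge moved by the phagocyte oxidase. It had 0.318, 0.255 and 0.131 FPKM in control and 128, 63.6 and 88.9 in adenine rats, which is 8.12 on the log2 scale (SE 0.32, limma adjusted p = 2.48e-05), and 0.462, 0.599 and 0.630 in sham and 11.2, 6.18 and 7.78 in UUO rats, which is 3.64 (SE 0.26, adjusted p = 5.01e-05). No adenine rat came near the control rats. Cybc1, the chaperone that lets the Cybb and Cyba proteins mature, rose 2.65-fold and 3.73-fold (limma adjusted p = 0.000231 and 7.66e-05). Rap1a, a small GTPase copurified with the phagocyte cytochrome, fell by 0.73 in the adenine model (SE 0.11, limma adjusted p = 0.00137), and in the UUO model its log2 fold change of 0.24 (adjusted p = 0.257) was -0.31 with median-of-ratios scaling.

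The epithelial helpers were low throughout. Noxo1, the organizer of Nox1, had 0, 0.0338 and 0.124 FPKM in control and 0.760, 0.656 and 1.10 in adenine rats, and at most 0.0263 FPKM in sham against 0.575 to 0.665 in UUO rats. Duoxa1, a maturation factor of the Duox enzymes, was listed at 0.0001, the lowest value of its table, in all 3 sham rats and had 1.45, 1.13 and 0.745 FPKM in UUO rats. In the adenine model Duoxa1 was not tested, but it had 0.0653, 0.0689 and 0.0423 FPKM in control and 0.222, 0.513 and 0.337 in adenine rats, without overlap. With no filter its log2 fold change there was 1.48 (limma adjusted p = 0.00866). Duoxa2, the maturation factor of Duox2, was likewise at 0.0001 in all sham rats and had 0.478, 1.69 and 0.336 FPKM in UUO rats, with rat 2 highest as for Duox2. Noxo1 (log2 fold changes 2.67 and 2.74 in the fit), Duoxa1 (3.55 in the UUO model) and Hvcn1 in the adenine model passed the minimum level through the disease group alone, so they had to differ, and the counts above are not evidence for the list. Their fitted values also depend on the pseudocount: between pseudocounts of 1 and 0.01 the log2 fold change of Noxo1 was 0.80 to 4.41 in the adenine and 0.69 to 5.35 in the UUO model, and that of Duoxa1 was 1.06 to 6.74. Duox1 had 0.739, 0.0549 and 0.143 FPKM in UUO rats and at most 0.0109 in sham rats, and Noxa1, the activator of Nox1, had 0.113, 0.447 and 0.139 against 0.0001 in all sham rats. In the adenine model both overlapped between groups, Duox1 with means of 0.0252 FPKM in adenine and 0.0308 in control rats and Noxa1 with 0.0154, 0 and 0.0507 against 0 in all control rats.

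**Figure D3:**
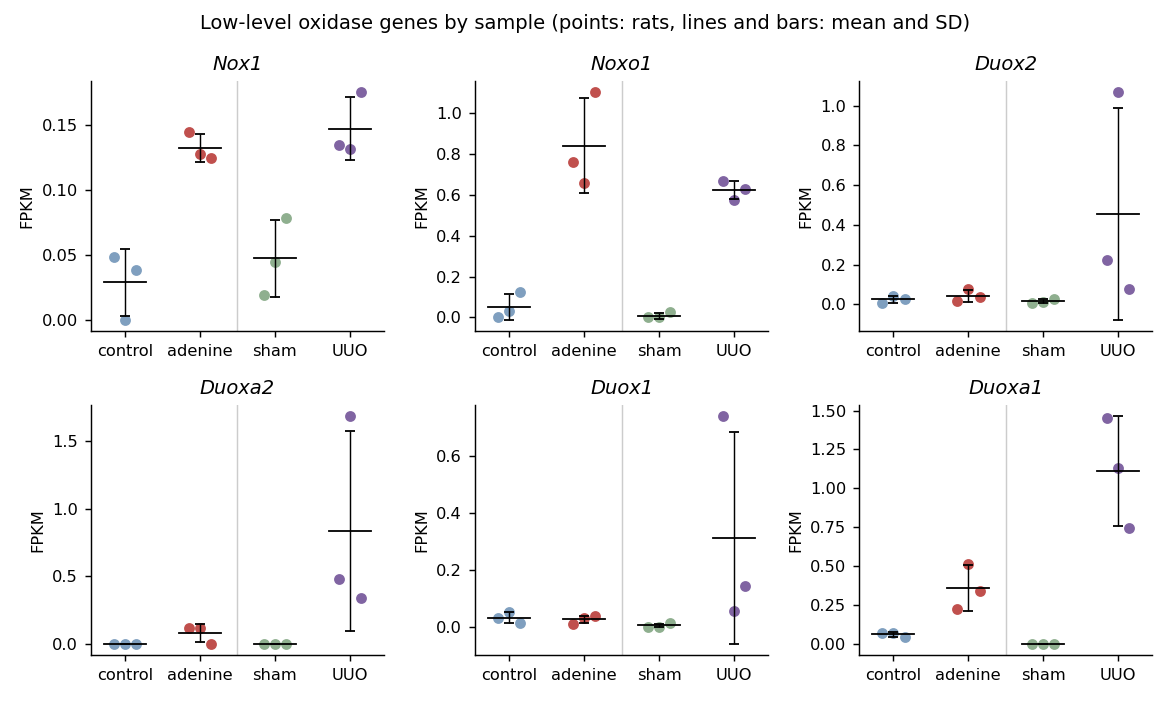
FPKM of 6 low-level oxidase genes in each rat (points) with the mean and SD of each group (lines and bars, linear axes that differ between panels). Duox2 and Duoxa2 were highest in the same UUO rat, at 1.07 and 1.69 FPKM, and Noxo1 lay at 0.575 FPKM or more in every adenine and UUO rat.

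Markers of the urothelium and of neutrophils were higher in UUO than in sham rats, as were the Duox genes, but within the UUO group they did not all move together. Among all tested entries 56.1% rose in the UUO model. All 5 urothelial markers were tested and rose there, 4 of them having passed the minimum level through the UUO group alone, and their sum went from 0.646 to 2.67 FPKM in sham to 72.0 to 145 in UUO rats, whereas neither of the 2 tested in the adenine model was called and the sum of the 5 was 0.740 to 6.96 in control and 1.07 to 3.89 in adenine rats. UUO rat 2, with the highest Duox2 and Duoxa2 but the lowest Duox1, had the highest S100a9 (22.2 FPKM against 8.04 and 3.61) and the lowest Upk1a (9.84 against 27.6 and 32.1). It was highest of its group in all 4 tested neutrophil markers and lowest in all 5 urothelial markers. The part of these markers in the levels of the Duox genes was not tested.

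Regulators of the oxidase rose with it. Of 9 genes of its activation 8 were listed and tested, and all 8 rose in each model, 7 of them as DEGs in the adenine and 5 in the UUO model. Over all tested entries 39.6% rose against control and 56.1% against sham, and 10.7% and 13.2% were upregulated DEGs. After median-of-ratios scaling Vav3 was no longer called in the UUO model. Vav1, an exchange factor of Rac in blood cells, had log2 fold changes of 4.32 and 3.05, Prex1, another such factor, of 3.20 and 2.39, and the kinase Prkcb, which phosphorylates Ncf1, of 4.10 and 2.34. Prkcb in both models and Tiam1 in the adenine model passed the minimum level through the disease group alone. The transcription factors of myeloid and interferon programs were DEGs in both models: Spi1 rose by 3.89 and 2.70, Irf8 by 3.13 and 3.47, and Irf1 by 2.31 and 3.34 on the log2 scale, with limma adjusted p from 9.65e-06 to 5.19e-05.

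**Figure D4:**
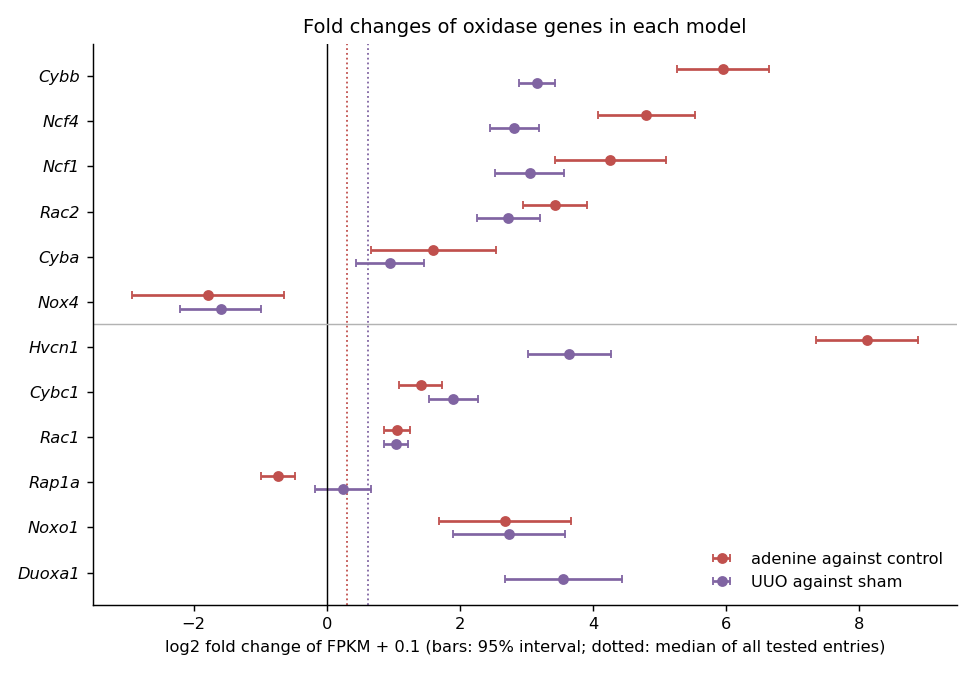
Log2 fold changes of FPKM + 0.1 for the members (upper 6 genes) and other tested oxidase genes in each model, with 95% intervals as bars; dotted lines mark the median of all tested entries, 0.30 and 0.62. Cybb, Ncf4 and Hvcn1 were further to the right in the adenine model, and Nox4 was to the left of 0 in both; Duoxa1 was tested in the UUO model alone.

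Leukocyte markers rose in the same kidneys, where 39.6% of all tested entries rose against control and 56.1% against sham. All 6 pan-leukocyte markers rose in both models, their sum going from 35.9 to 44.6 FPKM in control to 546 to 873 in adenine rats and from 41.7 to 46.8 in sham to 296 to 406 in UUO rats. All 10 macrophage markers rose in both models, from summed levels of 201 to 260 FPKM to 7043 to 13546 in the adenine model and of 225 to 351 to 1812 to 2677 in the UUO model. Of 7 neutrophil markers 3 were tested in the adenine and 4 in the UUO model, 2 in each of them through the disease group alone, so that their rise was fixed by the filter, as was that of the macrophage marker Cd163 in both models. The other neutrophil markers tested, S100a9 and, in the UUO model, S100a8, rose, with sums over the 7 of 14.1 to 26.8 FPKM in adenine and 6.97 to 38.3 in UUO rats. Elane, a gene of neutrophil granules, was at or below 0.0550 FPKM in every rat, and Mpo was at 3.30 FPKM in adenine rat 1 and at 0 in the other adenine rats. Numbers of neutrophils were not measured, and these low RNA levels do not give them. Adenine rat 2, lowest in Cybb, Ncf1, Ncf4 and Rac2, was also lowest of its group in all 6 pan-leukocyte markers, but of the 10 macrophage markers it was lowest in 4 and highest in 2. UUO rat 2 was likewise lowest of its group in all 6 pan-leukocyte markers. Of the 6 tested members, however, it was lowest in 2 and highest in 3.

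Set against the mean of the 6 pan-leukocyte markers within each rat, on the log2(FPKM + 0.1) scale, the subunits did not move as a block. Cybb stood at -0.31, -0.28 and -0.30 in control rats and at 1.82, 1.41 and 1.96 in adenine rats, a rise of 2.03 beyond the markers with no overlap. In the UUO model it went from -0.20 ± 0.09 to 0.02 ± 0.27 (SD, n = 3), a difference of 0.22 with overlapping groups (exact permutation p = 0.3). Ncf4 rose beyond the markers by 0.88 in the adenine model, without overlap, and differed by -0.13 in the UUO model (exact permutation p = 0.8). For Ncf1 the differences were 0.33 and 0.10 (exact permutation p = 0.3 and 0.9), and for Rac2 -0.50 without overlap and -0.21 with overlap. Cyba was lower relative to the markers by 2.32 and 2.00, and Hvcn1 was higher by 4.19 and 0.70, with no overlap in either model. Where groups did not overlap the exact permutation p was 0.1, the smallest possible. Single subunits were not set against macrophage markers, which rose further than the pan-leukocyte markers. The median log2 fold changes were 4.62 (adenine) and 3.50 (UUO) for macrophage and 3.71 and 2.94 for pan-leukocyte markers. A rise beyond the pan-leukocyte markers is thus not a rise beyond macrophage markers.

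**Figure D5:**
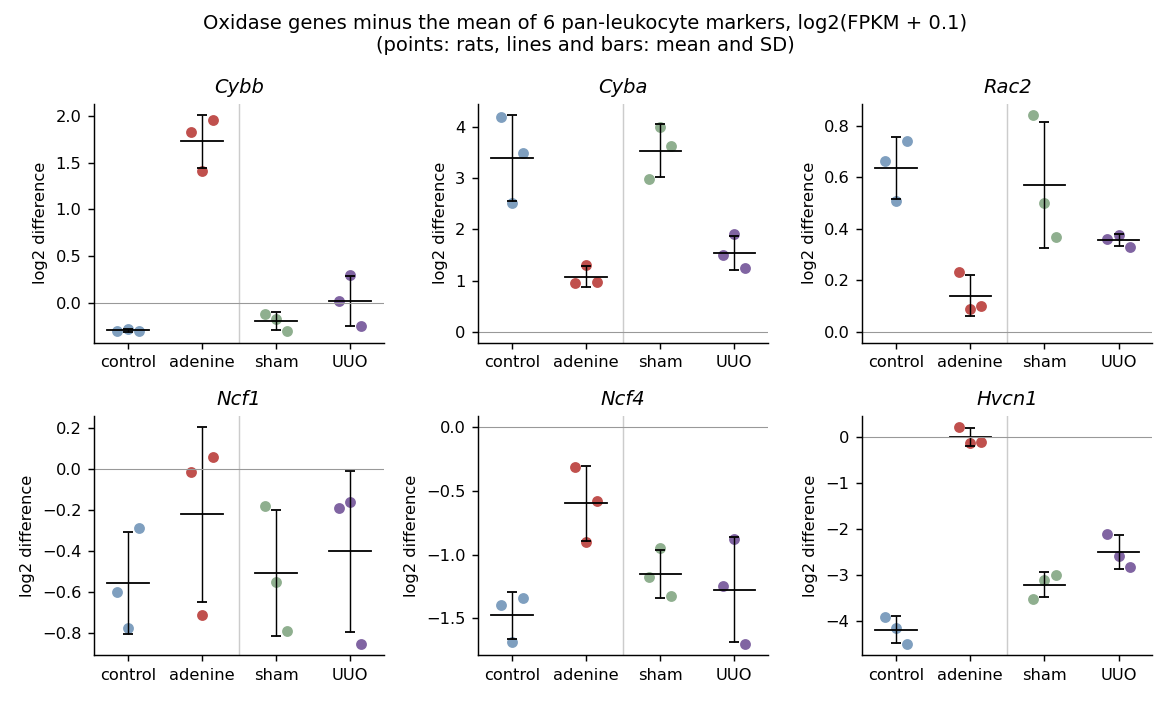
Level of 5 subunits and of Hvcn1 minus the mean of 6 pan-leukocyte markers in the same rat (log2 difference, 1 point per rat, with mean and SD). Cybb stood at 1.41 to 1.96 in adenine rats and between -0.31 and 0.29 in all other rats.

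Averaged over Cybb, Cyba, Ncf1, Ncf4 and Rac2, the level relative to pan-leukocyte markers was 0.34 ± 0.25 in control and 0.43 ± 0.16 in adenine rats, a difference of 0.08 (exact permutation p = 0.6), and 0.45 ± 0.13 in sham and 0.05 ± 0.28 in UUO rats, a difference of -0.40 (exact permutation p = 0.1). Set against macrophage markers instead, the differences were -0.52 and -0.91. The proportions among the subunits also shifted. Ncf1 over Cybb went from 0.843 ± 0.156 in control to 0.260 ± 0.0263 in adenine rats without overlap (SD, n = 3). In sham and UUO rats it was 0.812 ± 0.131 and 0.753 ± 0.108, and the ranges overlapped. Ncf4 over Cybb was lower without overlap in both models (exact permutation p = 0.1 in each). This ratio was 0.364 to 0.474 in control and 0.172 to 0.227 in adenine rats. In sham rats it was 0.471 to 0.577, and in UUO rats 0.365 to 0.444.

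The 2 models differed in how far the subunits rose. The models share no samples and their tables were normalized separately, so the log2 fold changes, each taken within its table, were compared and the errors treated as independent. Of the 6 tested members 3 differed, all with the larger rise in the adenine model, where 5.25% of the 13486 genes tested in both differed in that direction and 21.7% in the other, and the median difference over all genes was -0.28. The difference was 2.79 for Cybb (SE 0.31, adjusted p = 0.000103), 1.98 for Ncf4 (SE 0.34, adjusted p = 0.00162) and 1.21 for Ncf1 (SE 0.41, adjusted p = 0.0443), with limma standard errors and adjustment over all of these genes. That of Ncf1 was not called when any of control rats 1, 2 or 3, adenine rats 1 or 3, sham rats 1 or 2, or UUO rats 2 or 3 was left out, where it was 0.96 to 1.25 (adjusted p = 0.0566 to 0.120), while those of Cybb and Ncf4 were called under every alternative run. Of the pan-leukocyte and macrophage markers, 3 of 6 and 5 of 10 were called with the larger rise in the adenine model and none with the smaller. Cd163, among these 5, passed the minimum level through the disease group alone in both models. Its rise in each was thus fixed by the filter. The macrophage markers Adgre1 and Aif1 had differences of -0.52 and -0.45, which were not called. The median differences of pan-leukocyte and macrophage markers were 0.80 and 0.90, beside 0.95 over the 6 members. T cell markers went the other way, with a median difference of -1.40, and 1 of 5 was called, Cd3g, with the larger rise in the UUO model. Of 3 neutrophil markers 0 differed, with a median of 0.07. The part of these leukocyte markers in the differences of the subunits was not tested.

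For the other members no difference was called, and the intervals were wide. Rac2 differed by 0.70 (95% interval 0.09 to 1.31, limma adjusted p = 0.0826), and by 0.91 without adenine rat 2, when it was called. Cyba differed by 0.66 (-0.31 to 1.62, adjusted p = 0.293), and by 1.10 without control rat 1, when it was called. The falls of Nox4 differed by -0.19 (-1.36 to 0.98, adjusted p = 0.826). Among the other genes Hvcn1 differed most, by 4.47 (SE 0.41, limma adjusted p = 3.71e-05), and Tiam1 by 2.71 and Prkcb by 1.76 in the same direction. Hvcn1, Tiam1 and Prkcb passed the minimum level in the adenine model through the adenine rats alone, so part of their differences was fixed by the filter. Irf1 rose further in the UUO model, by a difference of -1.03 (SE 0.19, limma adjusted p = 0.00244).

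As a description, the genes closest to Cybb and to Nox4 in pattern were sought over the 12 rats, after subtracting the mean of each table from log2(FPKM + 0.1), among the same 13486 genes. The nearest to Cybb were Nfatc1 (Pearson r = 0.998), AABR07021402 (0.997) and Ncf4 (0.996), and those to Nox4 were Mpv17l (0.979), Rab11fip3 (0.973) and Slc30a2 (0.963). The log2 fold changes of Nfatc1 were 2.96 and 1.55, smaller than those of Cybb. Rats of a group share their condition, so the points are not independent and the values carry no test.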

How the data were processed

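RNA of 12 rat kidneys was compared as adenine against control and UUO against sham, with groups taken from the sample labels. The authors deposited FPKM values per gene in 2 tables, normalized separately. The submitters' processing notes name cutadapt 1.9, HISAT2 2.0.4, StringTie 1.3.4d, edgeR and DESeq2. The genome build is not given in the sources used here, so RefSeq coordinates apply to the promoter sequences alone. FPKM carries no read counts, and too few low values shared a common ratio (0.583% to 3.25% of genes) to recover depth, so precision rests on the spread between 3 rats. Values were fitted as log2(FPKM + 0.1) with limma 3.58.1 in R 4.3.3 (lmFit, eBayes with a trend), for entries that reached an FPKM of 0.5 in 3 or more of 6 samples. A pseudocount understates fold changes of low genes. The difference between models was divided by the root of the summed squared standard errors and referred to a t distribution with the degrees of freedom of both fits. Other steps used Python 3.11.15, pandas 2.3.3 and scipy 1.17.1. The fits were tested on simulated data.

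Named genes were the 8 members, genes of 3 oxidase lists, at most 3 genes of each marker list with the exception of a tissue gene that set a rat apart, and the 3 nearest patterns of Cybb and of Nox4. Members and lists were chosen with earlier results of these data known. Replicate numbers were not taken to pair the rats. The alternatives tried were other pseudocounts (1, 0.01), other filters (none, or 1 FPKM), median-of-ratios, quantile and equal-sum scaling, no trend, a replicate block, macrophage in place of pan-leukocyte markers, and leaving out each rat in turn.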

Additional observations from a re-analysis of the deposited data

Results flagged for a closer look

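Of 22 genes in the oxidase lists that were tested in both models, the log2 fold changes of 12 differed between the models by a test of the difference itself, 10 with the larger value in the adenine model (limma standard errors, adjusted p under 0.05 over 13486 genes, of which 5.25% were called in that direction and 21.7% in the other). Among the subunits the adenine model had the larger rise for Cybb (2.79, adjusted p = 0.000103), Ncf4 (1.98, adjusted p = 0.00162) and Ncf1 (1.21, adjusted p = 0.0443, lost without any of 9 of the 12 rats). Hvcn1, the proton channel, differed by 4.47 (adjusted p = 3.71e-05). The small GTPase Rap1a differed by -0.97 (adjusted p = 0.00485). It fell in the adenine model and was not called in the UUO model. Among activators of the oxidase the adenine model had the larger rise for Tiam1 (2.71), Prkcb (1.76), Vav1 (1.27), the kinase Prkcd (0.97) and Prex1 (0.80, adjusted p = 0.0498). Hvcn1, Tiam1 and Prkcb, which are among the 10, passed the minimum level in the adenine table through the adenine rats alone. They had to rise there, so the count of 10 is not evidence for the lists. Of the transcription factors, Spi1 rose further in the adenine model (1.20) and Irf1 further in the UUO model (-1.03). All single-gene groups had 3 rats, too few for a test of outlying samples.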

How the results depend on the processing

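The 6 tested members were called in each model under every alternative, except that Cyba in the UUO model was not called with median-of-ratios scaling (0.40, adjusted p = 0.169). Without a filter Nox1 was called too. Member DEGs numbered 4 or 5 in the adenine model over all alternatives, Nox4 joining with median-of-ratios or quantile scaling or without control rat 2, and Cyba without control rat 1. The 3 members that differed between models became 2 to 4: Ncf1 was also lost with no filter (adjusted p = 0.0568) and without the trend (0.0615), and Rac2 was called with median-of-ratios (1.01) and quantile (1.05) scaling. DEGs among the other oxidase genes went from 2 to 1 in the adenine model and from 3 to 1 in the UUO model with a pseudocount of 1 or a minimum FPKM of 1, and those called in the UUO model from 5 to 3 with a minimum FPKM of 1, which leaves fewer genes tested. The level of the phagocyte subunits relative to leukocyte markers reversed in the adenine model with macrophage markers (from 0.08 to -0.52) and without control rat 2 (-0.060). Leaving out each rat gave -0.060 to 0.18 there and -0.53 to -0.25 in the UUO model, where macrophage markers gave -0.91. Rap1a in the UUO model turned from 0.24 to -0.31 with median-of-ratios and -0.14 with quantile scaling. The causes of the other changes were not tested. With the replicate number as a block the members called stayed at 6 and 6 and those that differed between models at 3, and the largest adjusted p among the members was that of Nox4 in the adenine model, 0.0498. Rats with the same number correlated at -0.12 to -0.05 in the adenine model and at 0.05 to 0.11 in the UUO model, in which every rat correlated best with its own number. The labels state no pairing, and the numbers were not taken to pair the rats. These correlations cannot exclude a shared order or batch in the UUO model. The unknown depth limits what can be said of Nox1, Duox2 and the other genes below the minimum level.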

Other observations

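Other cell type markers moved in the same kidneys. All 5 T cell markers rose in both models, their summed level going from 5.75 to 8.20 FPKM in control to 20.8 to 39.0 in adenine rats and from 5.53 to 9.04 in sham to 48.0 to 144 in UUO rats. The only B cell marker tested in the adenine model, Cd79a, was not called, and the 2 tested in the UUO model passed the minimum level through the UUO rats alone, so their rise was fixed by the filter. All 6 fibroblast markers rose in both models (Lum had passed through the UUO group alone), with sums of 522 to 729 FPKM in adenine and 940 to 2148 in UUO rats, against 64.4 to 102 in control and 58.5 to 69.2 in sham rats. Of 4 endothelial markers tested, 1 rose, 2 fell and 1 was not called in the adenine model, and 2 rose and 2 were not called in the UUO model, while with median-of-ratios scaling 0 rose and 2 fell in the former and 1 rose and 1 fell in the latter. Of the 6 kidney identity genes 3 fell in the adenine and 5 in the UUO model, none rising in either.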
